A study of Mus musculus with 28 samples.

Results

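The ligands and receptors that steer growing axons were followed in mouse embryonic stem cell lines in which 1, 2 or all 3 of the transcription factors Atoh1, Gfi1 and Pou4f3 could be switched on with doxycycline (Dox). Genes were chosen by their symbols: those that start with Sema, Plxn, Efna, Efnb, Epha, Ephb, Slit or Ntn followed by a digit, Robo or Unc5, together with Dcc, Nrp1 and Nrp2, and without the Slitrk genes. The rule found 71 of the 19421 genes measured, and all 71 passed the filter on low values that 16837 genes passed in all, Epha10 only through its 2 iP+A Dox libraries. They comprise 3 Slits, 4 Robo receptors, 4 netrins, 5 netrin receptors, 20 semaphorins, 11 plexins and neuropilins, 8 ephrins and 14 Eph receptors. The remaining 2, Unc50 and Unc5cl, share only the letters of their names with the netrin receptors and are not known as guidance receptors.

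All lines derive from A2loxCre embryonic stem cells and carry an inducible transgene that also encodes the fluorescent protein Venus. The 7 lines are iAtoh1, iGfi1 and iPou4f3 with a single factor, iG+A (Gfi1 and Atoh1), iG+P (Gfi1 and Pou4f3), iP+A (Pou4f3 and Atoh1) and iGPA (all 3). Embryoid bodies, which are floating aggregates of differentiating stem cells, were grown without LIF, and the Dox groups received 2 µg/ml Dox for 48 h from day 4. RNA was taken at day 6 from Venus-positive sorted cells in the Dox groups and from whole untreated embryoid bodies in the control (Ctrl) groups, so the effects of Dox and of sorting cannot be told apart. Each of the 14 groups had 2 libraries, which came from different clones of the line.

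Slits are secreted proteins that mostly repel axons through Robo receptors. Netrins are secreted proteins that attract axons through Dcc and repel them through Unc5 receptors. Semaphorins are secreted or membrane-bound and act through plexins, with neuropilins as co-receptors for most of the secreted class 3 members. Ephrins are membrane-bound and signal on contact to Eph receptor tyrosine kinases, with the A and B classes differing in how the ephrin is anchored. In the inner ear, where Atoh1, Gfi1 and Pou4f3 are required for hair cells, and in the nervous system, where Atoh1 marks several neuronal progenitors, these families are known for guiding innervation, and many of their members also act in vessels and mesenchyme.

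Values are normalized counts, obtained by undoing the log2 scale of the deposited table. Their sums ranged from 36.8 M to 40.4 M per library, with 17628 to 18074 genes detected in each. Transgenes followed the labels: in Dox libraries, the factors were at 12816 (Atoh1), 8119 (Gfi1) and 4694 (Pou4f3) or more in the 8 libraries whose lines carry each, and at 32.5, 113 and 101 or less in the other 6. In untreated libraries Atoh1 was at 29.6 to 120 in carrying lines and at 3.02 to 13.3 in the others, without overlap. Untreated Gfi1 (57.9 to 119 against 27.3 to 68.6) and Pou4f3 (2.22 to 72.6 against 2.25 to 20.5) overlapped. Dox effects are read against these Ctrl levels. A difference was called when limma gave an adjusted p under 0.05 (Benjamini-Hochberg over all 16837 genes) and a log2 fold change of at least 1.5 either way, the threshold that the study used. Fold changes are on the log2(normalized count + 1) scale and are given with their standard errors, with 2 libraries per group. Each standard error of a Dox effect comes from the fit of all 14 groups, so a gene has the same one in every line. It is not the spread of the libraries quoted beside it. Where Dox and Ctrl libraries are said not to overlap, this is a description. It adds no support to a call, because such separation helped to choose genes given in full. RNA came from mixed cells, so more cells of a type and more RNA per cell cannot be told apart for any gene below.

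Among the 71 genes, 40 were called in at least 1 line, 26 of them higher with Dox, 17 lower and 3 in both directions. Of all tested genes, 25.0% were called in at least 1 line, 14.5% higher and 11.8% lower. Without Epha10, which was tested only because of the group in which it was high, 39 of 70 members were called and 25 were higher, with 17 higher in iG+A, 10 in iP+A and 18 in iGPA, each 1 fewer than in the counts that follow. In iGPA, 19 were higher and 11 lower, where 8.65% and 5.31% of all tested genes were called. In iG+A, 18 were higher and 4 lower, with 7.35% and 4.95% of all genes called. The counts were 10 higher and 7 lower in iG+P (5.16% and 5.36% of all genes) and 11 higher and 4 lower in iP+A (4.70% and 2.58%). Among the single-factor lines, iAtoh1 had 9 higher and 1 lower (2.89% and 2.52%), iGfi1 had 6 and 6 (2.15% and 2.67%), and iPou4f3 had 7 higher and none lower (1.47% and 0.606%). For the 69 members left without Unc50 and Unc5cl, 17 were higher in iG+A, 9 in iG+P and 5 in iGfi1, and 3 were lower in iP+A. The other counts stayed the same. With a replicate block, 2 rather than 1 were lower in iAtoh1, and without 1 library there were 2 (replicate 1 or 2 of Ctrl) or 0 (replicate 1 of Dox). Without replicate 1 of Dox, 2 rather than 6 were lower in iGfi1 and 2 rather than 4 in iP+A, and without replicate 1 of Ctrl or replicate 2 of Dox 4 rather than 7 were higher in iPou4f3. In iPou4f3, where limma called 0 members lower, 4 members had a fall at an unadjusted p under 0.05, and 1 of these had a log2 fold change past the threshold. A total of 17 members (16 without Epha10) were called higher in 3 or more lines and 5 were called lower in 3 or more lines, where 5.05% and 3.46% of all genes were.

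**Figure D1:**
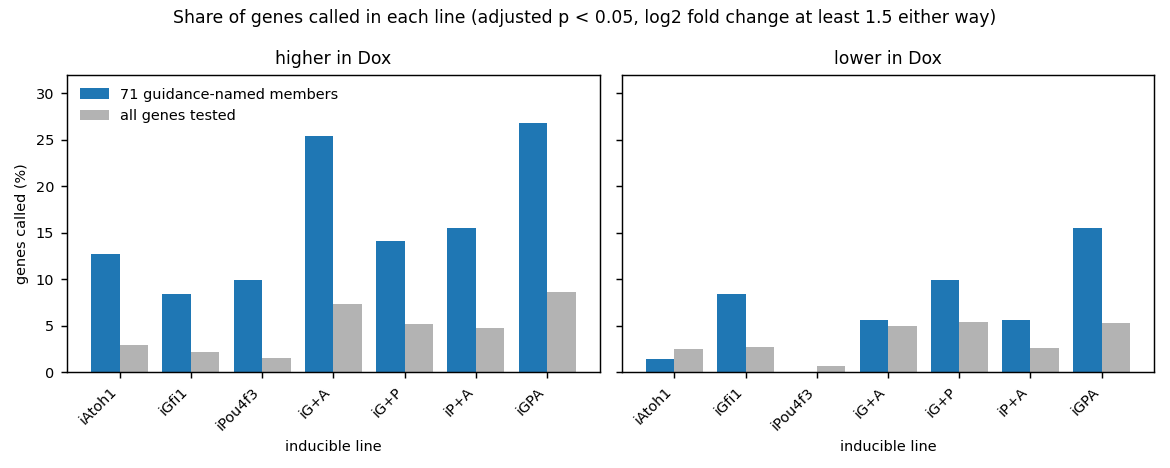
Percentage of the 71 members (blue) and of all 16837 tested genes (grey) called higher (left) or lower (right) with Dox in each line. Bars for the members stand above those for all genes in each panel except for lower calls in iAtoh1 and iPou4f3, with 19 members higher and 11 lower in iGPA.

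**Figure D2:**
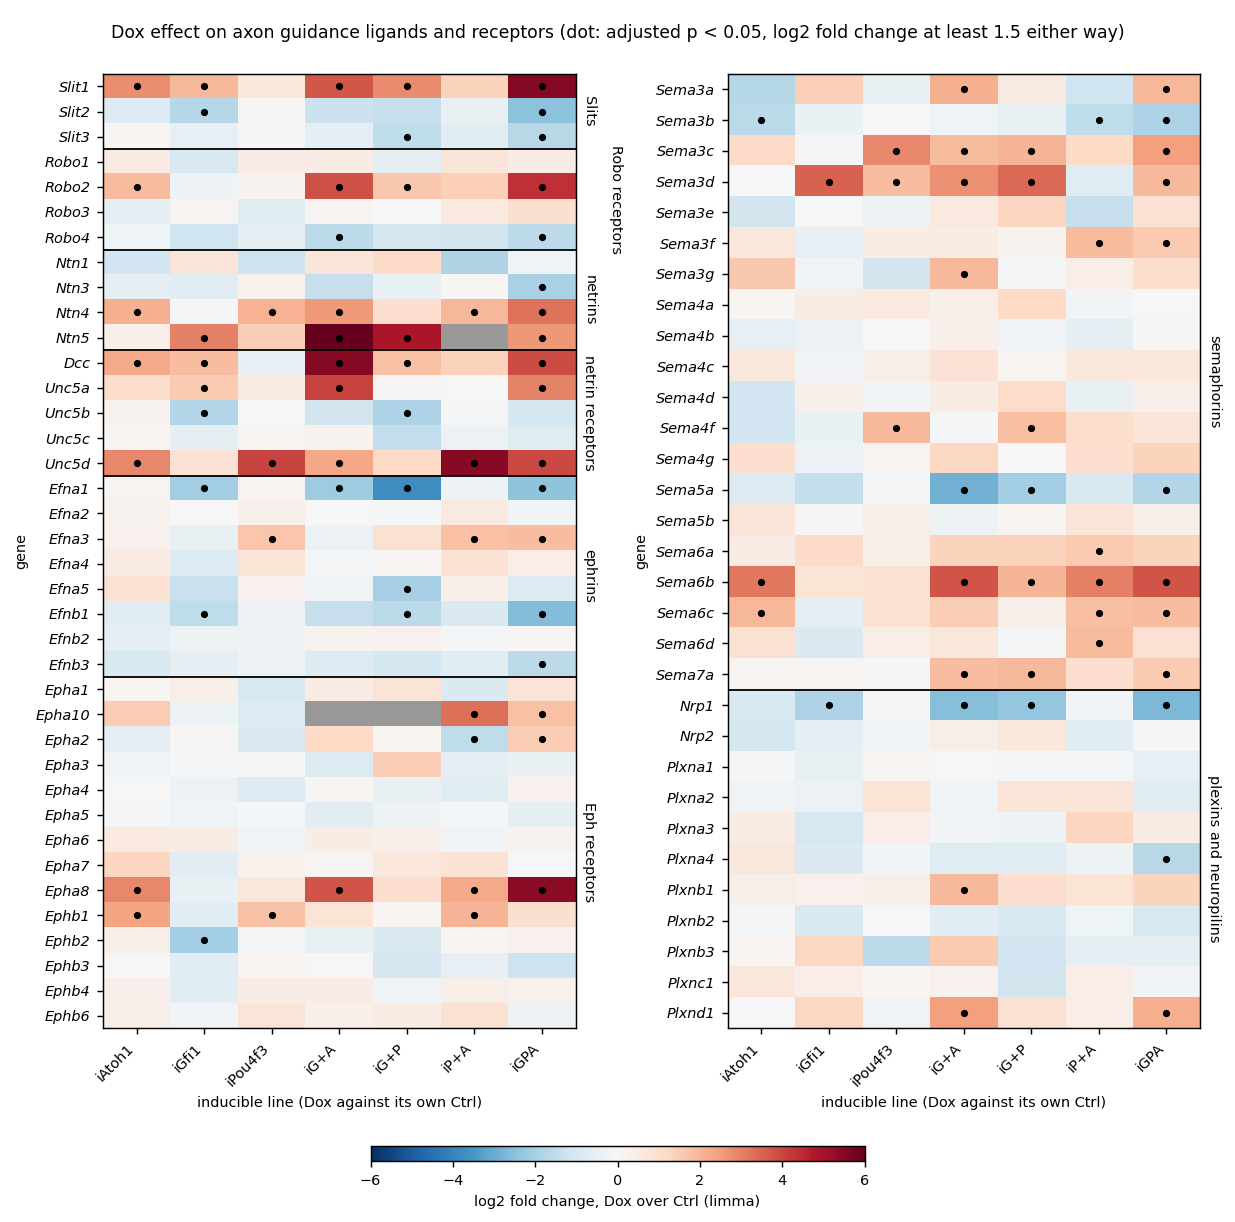
Log2 fold change of Dox over Ctrl (colour) for the 69 members of the guidance families in each line, grouped by ligand and receptor system, with a dot where the difference was called. Grey cells have a group listed at 0 in both libraries and carry no fold. Sema6b, Slit1, Dcc, Unc5d, Ntn4 and Sema3d are red with dots in 5 lines each, and Nrp1 and Efna1 are blue in the lines that carry Gfi1.

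A few genes were called the same way in every line that carries a factor. The share of all genes that meet this rule was not counted, so the sets are given as a description. Epha8, Ntn4, Sema6b and Unc5d were called higher in all 4 lines with Atoh1, and in all 4 lines with Gfi1 Dcc, Ntn5, Sema3d and Slit1 were called higher and Efna1 and Nrp1 lower. Of the 4 Atoh1 genes, only Epha8 was called in no line without Atoh1: Unc5d (4.04) and Ntn4 (2.08) also rose in iPou4f3 and Sema6b in iG+P (2.05). Of the Gfi1 genes, Dcc (2.26) and Slit1 (2.79) also rose in iAtoh1 and Sema3d in iPou4f3 (1.87), and Ntn5 was lower in iP+A. The 250 bases upstream of the RefSeq start (GRCm38.p6, 5′ to 3′ on the gene's strand, the most upstream start where several are listed) are shown for those with an entry, because these genes were called together across lines. Capitals mark CpG dinucleotides. The windows are chr4:136956817-136957066, minus strand for Epha8, chr10:93640799-93641048, plus strand for Ntn4, chr17:56140344-56140593, minus strand for Sema6b, chr3:89280952-89281201, minus strand for Efna1, chr8:128358823-128359072, plus strand for Nrp1, chr7:45683772-45684021, plus strand for Ntn5 and chr5:12382916-12383165, plus strand for Sema3d.
Epha8: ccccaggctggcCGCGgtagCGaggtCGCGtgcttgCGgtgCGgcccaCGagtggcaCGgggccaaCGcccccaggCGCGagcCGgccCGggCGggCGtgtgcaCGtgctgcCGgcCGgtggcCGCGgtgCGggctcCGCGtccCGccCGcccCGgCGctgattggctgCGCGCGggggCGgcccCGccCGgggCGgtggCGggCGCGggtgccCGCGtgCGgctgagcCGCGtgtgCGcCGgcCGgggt
Ntn4: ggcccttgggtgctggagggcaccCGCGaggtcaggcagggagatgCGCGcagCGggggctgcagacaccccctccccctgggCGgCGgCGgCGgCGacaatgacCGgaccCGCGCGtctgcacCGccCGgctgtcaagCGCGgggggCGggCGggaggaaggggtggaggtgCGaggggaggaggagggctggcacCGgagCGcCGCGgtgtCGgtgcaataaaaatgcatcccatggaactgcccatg
Sema6b: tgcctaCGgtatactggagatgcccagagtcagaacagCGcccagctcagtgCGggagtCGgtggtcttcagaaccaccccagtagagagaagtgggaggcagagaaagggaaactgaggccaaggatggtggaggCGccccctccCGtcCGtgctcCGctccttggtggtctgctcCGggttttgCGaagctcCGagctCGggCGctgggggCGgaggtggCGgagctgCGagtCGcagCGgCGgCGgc
Efna1: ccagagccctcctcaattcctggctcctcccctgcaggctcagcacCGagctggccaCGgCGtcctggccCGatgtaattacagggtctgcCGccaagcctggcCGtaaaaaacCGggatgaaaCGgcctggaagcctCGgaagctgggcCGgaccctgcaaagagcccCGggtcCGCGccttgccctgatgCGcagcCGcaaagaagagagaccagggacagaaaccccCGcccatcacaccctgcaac
Nrp1: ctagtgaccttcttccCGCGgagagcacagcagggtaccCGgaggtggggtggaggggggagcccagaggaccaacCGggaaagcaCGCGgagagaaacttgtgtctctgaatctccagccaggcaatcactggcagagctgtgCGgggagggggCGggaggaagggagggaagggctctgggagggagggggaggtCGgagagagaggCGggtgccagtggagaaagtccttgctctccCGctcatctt
Ntn5: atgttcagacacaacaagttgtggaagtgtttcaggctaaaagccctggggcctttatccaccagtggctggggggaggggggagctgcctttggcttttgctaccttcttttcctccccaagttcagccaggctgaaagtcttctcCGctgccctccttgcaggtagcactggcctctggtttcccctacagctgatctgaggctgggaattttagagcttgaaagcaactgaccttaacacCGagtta
Sema3d: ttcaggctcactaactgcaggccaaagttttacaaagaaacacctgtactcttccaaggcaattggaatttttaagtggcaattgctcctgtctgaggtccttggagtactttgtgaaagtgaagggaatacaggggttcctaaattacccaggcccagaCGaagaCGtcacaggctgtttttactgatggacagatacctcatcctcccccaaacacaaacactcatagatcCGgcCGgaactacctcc
These windows hold 46, 26, 20, 16, 11, 2 and 4 CpG dinucleotides in that order, against a median of 6 over 32851 mouse promoter windows of the same length, whose quartiles were 2 and 16. Their GC content was 84.0%, 73.2%, 66.0%, 64.8%, 64.4%, 52.8% and 46.8%, against a median of 52.4%. The E-box words CAGCTG and CAGATG, the Gfi1-type word AAATCA and the POU-type word ATTAAT, each searched on both strands, were absent from these 7 windows except for 1 CAGCTG in that of Ntn5. Only exact matches were counted, so the absence of a word does not show that a binding site is absent. Among all windows, 13.0%, 14.4%, 12.4% and 4.39% held these words in that order. Among the 77 windows of the 61 members with an entry, 15.6%, 6.49%, 9.09% and 1.30% did. Of these 77, 54 held none of the words, and the share of all windows with none was not counted.

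Of the Slit ligands, Slit1 rose in 5 lines and Slit2 and Slit3 fell in lines that carry Gfi1. Slit1, at chr19:41674747-41818155 in NCBIM37 coordinates, was at 118 and 80.6 normalized counts in iGPA Ctrl and 4675 and 4169.9 in iGPA Dox, a log2 fold change of 5.49 ± 0.42 (limma, adjusted p = 1.07e-08). In iG+A it was at 90.5 and 146 in Ctrl and 1169.6 and 1990.0 in Dox (3.72 ± 0.42), and in iG+P at 144 and 151 and 1488 and 774 (2.85 ± 0.42). It also rose in iAtoh1, from 345 and 119.9 to 1758 and 1129.9 (2.79 ± 0.42), and in iGfi1, from 113 and 95.02 to 379.9 and 418 (1.93 ± 0.42). In each of these lines both Dox libraries stood above both Ctrl libraries, and iGPA Dox held the highest values of the series. In iP+A the change of 1.40 ± 0.42 (adjusted p = 0.0207) stayed under the fold threshold, and in iPou4f3 the libraries overlapped. The iAtoh1 call was lost in a fit of only the groups compared (adjusted p = 0.0515).

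Slit2, at chr5:48374394-48697521, was at 9364 and 10441 in iGPA Ctrl and 1458 and 2156 in iGPA Dox (-2.48 ± 0.46, limma adjusted p = 0.000236). It also fell in iGfi1, from 7468 and 9895 to 1769.6 and 3983 (-1.70 ± 0.46), a call that was lost when a library was left out, at -1.49 without replicate 2 of Ctrl (adjusted p = 0.0914) and -1.11 without replicate 1 of Dox (adjusted p = 0.182). Slit3 fell in iGPA, from 13171 and 10974 to 4976 and 2957 (-1.65 ± 0.27), and in iG+P, from 12284 and 12717 to 4567 and 4080.3 (-1.53 ± 0.27). Both Slit3 calls slipped under the fold threshold without 1 library, at -1.27 without replicate 2 of Dox (adjusted p = 0.00267) and, in iG+P, -1.45 without replicate 2 of Dox (adjusted p = 0.00359). No Ctrl library overlapped a Dox library in these 4 comparisons, and Slit1 therefore moved in the opposite direction to Slit2 and Slit3 in iGPA. Of the 10 mesenchymal markers, 8 were lower in iGPA, 5 in iG+P and 3 in iGfi1, and also 6 in iG+A, 3 in iAtoh1 and 2 in iP+A, where no fall of a Slit was called. Their summed level in iGPA was 101435.5 and 149047.5 in Ctrl and 10174.2 and 13304.7 in Dox. Their part in the falls of Slit2 and Slit3 was not tested.

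Robo2, a principal Slit receptor, was the only Robo gene called higher in any line. In iGPA it went from 761 and 1116 to 20116 and 18777 (4.40 ± 0.28, limma adjusted p = 9.29e-10) and in iG+A from 1232 and 918 to 19055 and 11954 (3.83 ± 0.28, adjusted p = 9.61e-09). The gene lies at chr16:73892551-74412070 on the minus strand. Smaller rises were called in iAtoh1, from 835 and 745 to 4021 and 2212 (1.92 ± 0.28), and in iG+P, from 622 and 792 to 1828 and 2459.6 (1.59 ± 0.28). These were close to the threshold: the iAtoh1 value was 1.49 without replicate 1 of Dox (adjusted p = 0.00335), and the iG+P value was 1.42 without replicate 1 of Ctrl (adjusted p = 0.00591) and 1.38 without replicate 2 of Dox (adjusted p = 0.00605). In iP+A, Robo2 rose from 787 and 1050.3 to 2468 and 2508, and its 1.45 ± 0.28 (adjusted p = 0.000861) missed only the fold threshold. Libraries overlapped in iPou4f3 and fell on the lower side in iGfi1 (-0.29, adjusted p = 0.474).

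Robo1, the other widely expressed Slit receptor, lay between -0.95 in iGfi1 and 0.74 in iP+A and was called in no line. Robo3, known from commissural axons, was called in no line and varied widely between clones, for instance 132 and 15.6 in the 2 iAtoh1 Ctrl libraries. Robo4, an endothelial member, was lower in iG+A (95.1 and 87.4 in Ctrl, 17.02 and 51.2 in Dox, -1.59 ± 0.62) and in iGPA (64.7 and 59.9 and 10.2 and 39.4, -1.57 ± 0.62). These calls rested on single libraries, with -1.53 without replicate 1 of Ctrl (adjusted p = 0.147), -1.65 without replicate 2 of Ctrl (adjusted p = 0.111) and -0.82 without replicate 1 of Dox (adjusted p = 0.398) in iG+A and -1.52 without replicate 1 of Ctrl (adjusted p = 0.136), -1.62 without replicate 2 of Ctrl (adjusted p = 0.117) and -0.65 without replicate 1 of Dox (adjusted p = 0.488) in iGPA. Of 10 endothelial markers, 1 was higher and none lower in iG+A, and 2 were higher and 1 lower in iGPA.

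Among netrins, Ntn4 and Ntn5 rose and Ntn3 fell. Ntn4, a netrin of basement membranes, rose in the 4 lines with Atoh1 and in iPou4f3. It went from 30.6 and 12.8 to 234 and 166 in iGPA (3.24 ± 0.42, limma adjusted p = 5.13e-06). Its iG+A libraries read 26.7 and 25.8 for Ctrl and 159 and 161 for Dox (2.56 ± 0.42). The log2 fold change was 2.14 ± 0.42 in iAtoh1, 1.97 ± 0.42 in iP+A and 2.08 ± 0.42 in iPou4f3, where Ctrl was at 19.2 and 32.4 and Dox at 88.96 and 133. Both Dox libraries lay above both Ctrl libraries in all 5 lines, and the call in iPou4f3 was lost without 1 library, at 1.72 without replicate 1 of Ctrl (adjusted p = 0.108) and 1.79 without replicate 2 of Dox (adjusted p = 0.0878). In a fit of only the groups compared, the Ntn4 calls in iAtoh1 and iPou4f3 were lost (adjusted p = 0.0667 and 0.101).

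Ntn5, a less studied netrin, was low in Ctrl and rose in each line with Gfi1. It was at 1.16 and 3.36 in iG+A Ctrl and 219 and 279 in iG+A Dox (6.34 ± 0.68, limma adjusted p = 8.82e-07), and at 5.11 and 0 and 83.4 and 65.01 in iG+P (4.92 ± 0.68). In iGfi1 it went from 7.997 and 5.002 to 71.5 and 47.4 (3.01 ± 0.68) and in iGPA from 6.99 and 10.8 to 54.2 and 63.6 (2.62 ± 0.68). In iP+A it was called lower, from 13.2 and 11.03 in Ctrl to being listed at 0 in both Dox libraries, so no fold is given. Its exons share 407 bases with Sec1 on the opposite strand, and the sources used here name no strand setting beyond kallisto at default settings. Ntn3 was lower in iGPA alone, from 434 and 602 to 147 and 120.3 (-1.94 ± 0.27, adjusted p = 1.31e-05), and its exons share 89 bases with Tbc1d24 on the same strand and 139 with BC028777 on the other. Ntn1, the classical attractant of commissural axons, was called in no line, with its extremes at -1.80 ± 0.74 in iP+A (adjusted p = 0.0833) and 1.13 ± 0.74 in iG+P (adjusted p = 0.263).

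The netrin receptor Dcc, which mediates attraction to netrin-1, rose most in iG+A. There it was at 82.5 and 50.7 in Ctrl and 4351 and 1898 in Dox (5.45 ± 0.42, limma adjusted p = 2.21e-08), and in iGPA it went from 31.4 and 53.8 to 671 and 601 (3.92 ± 0.42, adjusted p = 6.78e-07). Smaller rises were called in iAtoh1, from 56.95 and 50.3 to 399 and 169.6 (2.26 ± 0.42), in iGfi1 (219.7 and 152 in Dox, 1.87 ± 0.42) and in iG+P (192 and 106 in Dox, 1.75 ± 0.42). The call was lost at 1.60 without replicate 1 of Dox (adjusted p = 0.057) in iGfi1 and at 1.32 without replicate 1 of Dox (adjusted p = 0.063) in iG+P, and in iAtoh1 in a fit of only the groups compared (adjusted p = 0.0566). In iP+A the change of 1.40 ± 0.42 was under the fold threshold, and in iPou4f3 both Dox libraries (36.2 and 39.9) lay below both Ctrl libraries (53.8 and 54.2) with no call (adjusted p = 0.598). Over the whole series, Ctrl libraries held Dcc between 31.4 and 82.5.

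Of the repulsive Unc5 receptors, Unc5d and Unc5a rose and Unc5b fell. Unc5d rose in the 4 lines with Atoh1 and in iPou4f3, from 21.4 and 37.7 to 1473 and 1115 in iP+A (5.45 ± 0.42, limma adjusted p = 2.64e-08). Its iPou4f3 libraries read 24.8 and 35.7 for Ctrl and 544 and 473 for Dox (4.04 ± 0.42, adjusted p = 7.14e-06). It was at 529 and 461 in iGPA Dox (3.98 ± 0.42), 295 and 219 in iAtoh1 Dox (2.90 ± 0.42) and 281 and 131 in iG+A Dox (2.32 ± 0.42), with every Ctrl library of these lines at 49.9 or less. Unc5a rose in 3 of the 4 lines with Gfi1, 2 of them shared with Unc5d: from 32.5 and 42.6 to 639.6 and 623 in iG+A (4.05 ± 0.29), from 87.4 and 58.96 to 467 and 698 in iGPA (2.97 ± 0.29) and from 60.9 and 72.02 to 161 and 244 in iGfi1 (1.57 ± 0.29), but not in iG+P (0.07 ± 0.29). The iGfi1 call for Unc5a was lost at 1.45 without replicate 1 of Ctrl (adjusted p = 0.0109) and 1.27 without replicate 2 of Dox (adjusted p = 0.0119). Unc5b, a receptor of vessels as well as axons, fell in iGfi1 from 12617 and 13920.5 to 3013 and 4988 (-1.77 ± 0.24) and in iG+P from 13316 and 12489 to 3842 and 3258 (-1.87 ± 0.24). The iGfi1 fall of Unc5b was -1.41 without replicate 1 of Dox (adjusted p = 0.0021). Of 10 mesenchymal markers, 3 were lower in iGfi1 and 5 in iG+P. They also fell where Unc5b was not called, 8 in iGPA, 6 in iG+A, 3 in iAtoh1 and 2 in iP+A. Endothelial markers fell in iG+P (3 of 10) and not in iGfi1. The part of these cells in the fall of Unc5b was not tested. Unc5c was called in no line, and its lowest value, in iG+P, was -1.48 ± 0.26 (adjusted p = 0.000199), just inside the fold threshold.

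**Figure D3:**
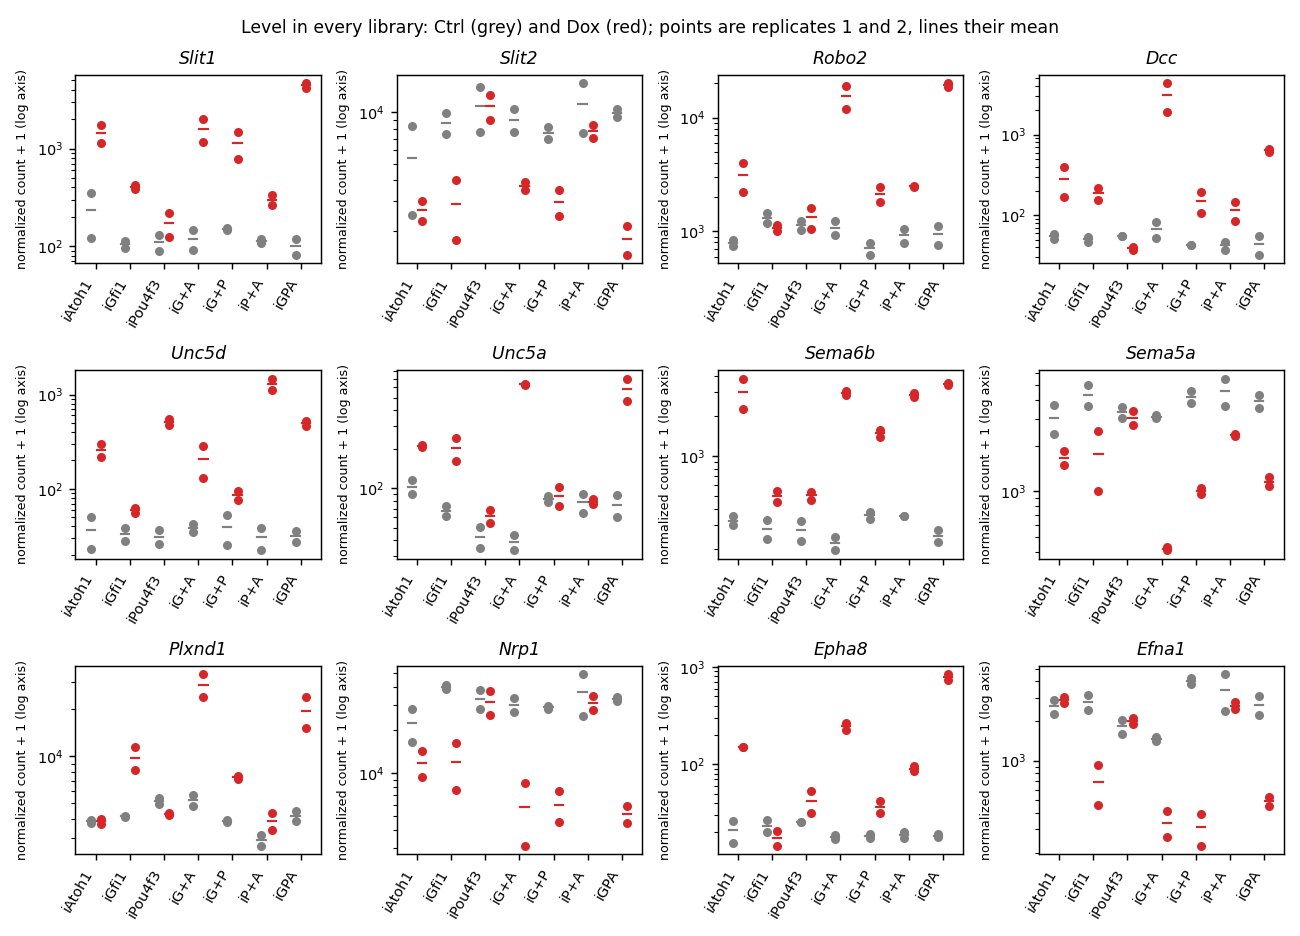
Normalized count plus 1 (log axis) of 12 members in every Ctrl (grey) and Dox (red) library of the 7 lines, with lines at the mean of the 2 replicates. Slit1, Robo2, Dcc, Unc5a, Plxnd1 and Epha8 are highest in iG+A or iGPA Dox libraries, Unc5d is highest in iP+A Dox, and Nrp1 and Efna1 are low in the Dox libraries of iGfi1, iG+A, iG+P and iGPA.

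Of the 20 semaphorins, 11 rose in at least 1 line, where 14.5% of all genes did, and 2 fell, near the 11.8% of all genes. Sema6b, a transmembrane ligand of class A plexins, rose in 5 lines. It was at 274 and 225 in iGPA Ctrl and 3369 and 3536 in iGPA Dox (3.79 ± 0.22, limma adjusted p = 2.53e-10), and at 194 and 244 and 2852 and 3064 in iG+A (3.76 ± 0.22). In iAtoh1 it went from 350.0 and 299 to 2239 and 3789 (3.17 ± 0.22), and in iP+A from 349 and 352 to 2972 and 2774 (3.03 ± 0.22). The rise in iG+P was smaller (1551 and 1386 in Dox, 2.05 ± 0.22), and the 2 remaining lines were not called, at 0.82 ± 0.22 in iGfi1 and 0.88 ± 0.22 in iPou4f3. Groups did not overlap in any of the 5 lines called, none of which lost its call when a library was left out.

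The other class 6 semaphorins, also transmembrane plexin ligands, all rose in iP+A. Sema6c rose in iAtoh1 (709.9 and 769.9 in Ctrl, 2668 and 3199 in Dox, 1.98 ± 0.17), iP+A (1.82 ± 0.17) and iGPA (1.85 ± 0.17). Sema6d rose in iP+A from 1115 and 1015 to 4311 and 3763 (1.92 ± 0.13, limma adjusted p = 4.64e-09), and Sema6a rose there from 762 and 818 to 2429.9 and 2275 (1.57 ± 0.16). Among the secreted class 3 members, Sema3f, a ligand of Nrp2, rose in iP+A from 4267 and 2969 to 13157 and 12994 (1.88 ± 0.15) and in iGPA from 2675 and 2634 to 8016 and 7916 (1.58 ± 0.15). In iP+A and iGPA, 10 and 8 of 12 neuronal markers rose too, and their summed level in iP+A went from 1143.4 and 2009.1 in Ctrl to 24152.8 and 17916.9 in Dox. Their part in the semaphorin rises was not tested.

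Sema3d and Sema3c, which guide axons and neural crest, both rose in iPou4f3, iG+A, iG+P and iGPA. Sema3d was at 44.8 and 24.96 in iGfi1 Ctrl and 324 and 490.0 in iGfi1 Dox (3.53 ± 0.49, limma adjusted p = 5.75e-05) and at 57.1 and 39.00 and 562 and 473 in iG+P (3.42 ± 0.49). It also rose in iG+A (2.73 ± 0.49), iGPA (1.94 ± 0.49) and iPou4f3 (18.01 and 28.97 in Ctrl, 81.7 and 90.9 in Dox, 1.87 ± 0.49, adjusted p = 0.0323). Only the iPou4f3 call was lost when a library was left out, and it was lost with any of the 4, at 1.54 without replicate 1 of Ctrl (adjusted p = 0.273), 2.20 without replicate 2 of Ctrl (adjusted p = 0.0592), 1.95 without replicate 1 of Dox (adjusted p = 0.136) and 1.79 without replicate 2 of Dox (adjusted p = 0.164). Sema3c rose in iPou4f3 from 25.3 and 30.1 to 215 and 209.6 (2.90 ± 0.50), in iGPA (2.45 ± 0.50), in iG+P (2.03 ± 0.50) and in iG+A (1.91 ± 0.50), the last with 1.67 without replicate 1 of Ctrl (adjusted p = 0.053) and 1.30 without replicate 1 of Dox (adjusted p = 0.0964). Sema3c was thus higher in all 3 lines with Gfi1 and a second factor, but in iGfi1 its value was -0.06 ± 0.50.

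Sema7a, a membrane-anchored semaphorin that acts through integrins and Plxnc1, rose in iG+P from 123 and 172 to 706 and 437 (1.93 ± 0.40), in iG+A (529 and 988 in Dox, 1.87 ± 0.40) and in iGPA (781 and 507 in Dox, 1.59 ± 0.40). The iG+A value was 1.42 without replicate 2 of Dox (adjusted p = 0.0255), and the iGPA value was 1.21 without replicate 1 of Ctrl (adjusted p = 0.0556) and 1.28 without replicate 1 of Dox (adjusted p = 0.0497). Weaker evidence came with 3 more rises. Sema3a, the classical collapsing semaphorin, was higher in iG+A (2.11 ± 0.64, with 1.52 without replicate 1 of Ctrl (adjusted p = 0.143) and 1.74 without replicate 2 of Dox (adjusted p = 0.0987)) and in iGPA (1.98 ± 0.64, with 1.66 without replicate 2 of Ctrl (adjusted p = 0.118), 2.08 without replicate 1 of Dox (adjusted p = 0.0535) and 1.88 without replicate 2 of Dox (adjusted p = 0.0765)). Sema3g was higher in iG+A (1.95 ± 0.62), where 3 of the 4 libraries were each needed, with 1.86 without replicate 1 of Ctrl (adjusted p = 0.0821), 2.05 without replicate 2 of Ctrl (adjusted p = 0.0511) and 1.69 without replicate 2 of Dox (adjusted p = 0.101). Sema4f was higher in iPou4f3 (1.94 ± 0.51) and iG+P (1.78 ± 0.51), with 1.89 without replicate 1 of Ctrl (adjusted p = 0.185), 1.99 without replicate 2 of Ctrl (adjusted p = 0.117), 2.08 without replicate 1 of Dox (adjusted p = 0.122) and 1.79 without replicate 2 of Dox (adjusted p = 0.185) in iPou4f3 and 1.57 without replicate 1 of Ctrl (adjusted p = 0.0846) and 1.23 without replicate 1 of Dox (adjusted p = 0.146) in iG+P.

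Sema5a and Sema3b fell. Sema5a, a bifunctional transmembrane semaphorin, was at 3180.1 and 3027 in iG+A Ctrl and 428 and 408 in iG+A Dox (-2.89 ± 0.30, limma adjusted p = 6.83e-07). It also fell in iG+P, from 4613 and 3813 to 959 and 1056 (-2.06 ± 0.30), and in iGPA, from 4345 and 3532 to 1079 and 1238 (-1.76 ± 0.30). Each fall separated the groups, and none lost its call when a library was left out. Of 10 mesenchymal markers, 6 were lower in iG+A, 5 in iG+P and 8 in iGPA. They also fell where Sema5a was not called, 3 in iGfi1, 3 in iAtoh1 and 2 in iP+A. Their part in the fall of Sema5a was not tested. Sema3b, secreted and also expressed outside the nervous system, was lower in 3 of the 4 lines with Atoh1: from 730.4 and 613 to 178 and 198 in iGPA (-1.83 ± 0.36), with -1.61 ± 0.36 in iAtoh1 and -1.54 ± 0.36 in iP+A. Without 1 library its values were -1.18 without replicate 2 of Ctrl (adjusted p = 0.0632) and -1.33 without replicate 1 of Dox (adjusted p = 0.0507) in iAtoh1, and -0.83 without replicate 1 of Ctrl (adjusted p = 0.0994) and -1.38 without replicate 2 of Dox (adjusted p = 0.0436) in iP+A, and both calls were also lost in a fit of only the groups compared (adjusted p = 0.0708 and 0.112). The fourth line, iG+A, was not called, at -0.24 ± 0.36 (adjusted p = 0.631). The 7 semaphorins called in no line were Sema3e, Sema4a, Sema4b, Sema4c, Sema4d, Sema4g and Sema5b. Among them Sema4g had the value nearest to a call that passed the p threshold, 1.35 ± 0.15 in iGPA (adjusted p = 1.19e-06).

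Among the semaphorin receptors, 4 of 11 plexins and neuropilins were called in at least 1 line, where 25.0% of all genes were. Plxnd1, a receptor for Sema3e that is prominent in vessels, rose in iG+A from 4835 and 5626 to 23943 and 33671 (2.44 ± 0.19, limma adjusted p = 2.04e-08) and in iGPA from 3857 and 4460.5 to 15144 and 23974 (2.20 ± 0.19, adjusted p = 3.95e-08). The groups were far apart in both lines, and iG+P and iGfi1 were under the fold threshold at 0.93 ± 0.19 and 1.23 ± 0.19. Sox18, an endothelial transcription factor on the marker list, rose in the same 2 lines, by 2.75 and 2.92, while Pecam1 was at -1.31 and -1.93. Of the 10 endothelial markers, 1 was higher and none lower in iG+A, and 2 were higher and 1 lower in iGPA, with a summed level of 23772.4 and 23278.5 in Ctrl and 33082.4 and 36975.9 in Dox in iG+A. In iGPA the sums overlapped, at 17384.4 and 19874.2 in Ctrl and 18697.6 and 32616.5 in Dox. The part of endothelial cells in the Plxnd1 rise was not tested. Plxnb1, a receptor for class 4 semaphorins, rose in iG+A from 933 and 1409 to 4416 and 4342 (1.93 ± 0.18, adjusted p = 1.48e-07), and its exons share 210 bases with Gm7628 on the opposite strand.

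Nrp1, the co-receptor of Sema3a and of VEGF, fell in the 4 lines with Gfi1. It went from 32122 and 34299.5 to 4427 and 5917 in iGPA (-2.70 ± 0.43, limma adjusted p = 5.32e-05), from 33373 and 26584 to 8489 and 3088 in iG+A (-2.54 ± 0.43), from 28083 and 29601 to 4530.0 and 7467 in iG+P (-2.31 ± 0.43) and from 38616 and 41450.1 to 7602 and 16108 in iGfi1 (-1.85 ± 0.43). Each Ctrl library exceeded each Dox library, and the iGfi1 value was -1.31 without replicate 1 of Dox (adjusted p = 0.0921). In lines without Gfi1 it was at -0.90 ± 0.43 in iAtoh1, -0.08 ± 0.43 in iPou4f3 and -0.18 ± 0.43 in iP+A, none of them called. Mesenchymal markers fell in the same lines, 6 of 10 in iG+A, and also in iAtoh1 (3 of 10) and iP+A (2 of 10), and their part was not tested. Plxna4, a partner of Nrp1 in Sema3a signalling, was lower in iGPA (3434 and 5482 in Ctrl, 1206 and 1590.3 in Dox, -1.65 ± 0.53), but lost its call at -1.31 without replicate 2 of Ctrl (adjusted p = 0.128) and -1.45 without replicate 1 of Dox (adjusted p = 0.0971). Nrp2, Plxna1, Plxna2, Plxna3, Plxnb2, Plxnb3 and Plxnc1 were called in no line. Of these, Plxna3 was higher in iP+A by less than the fold threshold (1.30 ± 0.13, adjusted p = 8.86e-07).

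Among ephrins, 4 of 8 fell in at least 1 line, where 11.8% of all genes did, and 1 rose, near the 14.5% of all genes. Efna1 is an ephrin of vessels and epithelia as well as axons, and fell in the 4 lines with Gfi1. It went from 4212 and 3809 to 395 and 224 in iG+P (-3.75 ± 0.33, limma adjusted p = 1.00e-07), from 3112 and 2224 to 450.4 and 531 in iGPA (-2.42 ± 0.33), from 1398 and 1518 to 411 and 264 in iG+A (-2.14 ± 0.33) and from 3163 and 2434 to 456 and 929 in iGfi1 (-2.09 ± 0.33). The groups were separate in all 4 lines, and no call was lost when a library was left out. Mesenchymal markers fell in the same lines, 3 of 10 in iGfi1, 6 in iG+A, 5 in iG+P and 8 in iGPA, and 3 of 10 endothelial markers fell in iG+P, with a summed level of 15645.3 and 18299.8 in Ctrl and 6222.0 and 6796.9 in Dox. Their part in the fall of Efna1 was not tested. Efnb1, which marks tissue boundaries through Ephb receptors, fell in iGPA from 8517 and 9785 to 1529 and 1448 (-2.62 ± 0.33), in iG+P (-1.60 ± 0.33) and in iGfi1 (-1.54 ± 0.33, with -1.44 without replicate 2 of Ctrl (adjusted p = 0.0285) and -1.11 without replicate 1 of Dox (adjusted p = 0.0624)). Efna5, known from topographic maps in the visual system, fell in iG+P from 2671 and 2657 to 685 and 641 (-2.005 ± 0.18, adjusted p = 1.13e-07). Efnb3 fell in iGPA (857 and 1001 in Dox, -1.57 ± 0.20), at -1.44 without replicate 2 of Ctrl (adjusted p = 0.000186) and -1.46 without replicate 1 of Dox (adjusted p = 0.000166).

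Efna3, a further A-class ephrin, went the other way, and did so in lines with Pou4f3. It rose from 327 and 349 to 1066 and 1068 in iPou4f3 (1.66 ± 0.23, limma adjusted p = 0.000225), from 483 and 381 to 1639 and 1492 in iGPA (1.86 ± 0.23) and from 947 and 504 to 2371 and 2289 in iP+A (1.75 ± 0.23). The iP+A value was 1.30 without replicate 2 of Ctrl (adjusted p = 0.000563), and the fourth line with Pou4f3, iG+P, was under the fold threshold at 0.92 ± 0.23. Its exons share 344 bases with Gm15998 on the opposite strand. Efna1 and Efna3 therefore moved in opposite directions in iGPA. They lie close together, at chr3:89075655-89085064 and chr3:89117821-89126887. Efna2, Efna4 and Efnb2 were called in no line.

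Of 14 Eph receptors, 5 were called in at least 1 line, where 25.0% of all genes were. These 5 include Epha10, which was tested only because of the group in which it was high. Epha8, expressed in the developing midbrain, rose in the 4 lines with Atoh1: in iGPA it went from 18.4 and 16.7 to 730.2 and 843 (5.41 ± 0.30, limma adjusted p = 1.83e-10) and in iG+A from 16.2 and 17.9 to 226 and 266 (3.77 ± 0.30). It was at 149 and 149 in iAtoh1 Dox (2.88 ± 0.30) and at 94.2 and 84.6 in iP+A Dox (2.26 ± 0.30), with all Ctrl libraries of these lines at 25.4 or less. Ephb1, a receptor of the retinal axons that do not cross the midline, rose in iAtoh1 (233 and 239.7 in Ctrl, 1312 and 1118 in Dox, 2.35 ± 0.23), iP+A (2.05 ± 0.23) and iPou4f3 (1.78 ± 0.23). Its exons share 152 bases with Gm17708 on the opposite strand. Shorter overlaps were listed for other called members, 34 bases for Unc5a, 79 for Epha10, 80 for Nrp1 and 110 for Plxna4. None of the 7 calls for Epha8 and Ephb1 was lost when a library was left out. Ephb2 fell in iGfi1 from 2637 and 3247 to 702 and 741 (-2.02 ± 0.17, adjusted p = 6.65e-07).

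Epha10 and Epha2 gave less secure calls. Epha10, which lacks kinase activity, reached the minimum of 10 normalized counts only in the 2 iP+A Dox libraries, so it was tested because of the group in which it was high. Its iP+A libraries read 3.06 and 2.76 in Ctrl and 50.7 and 27.9 in Dox, given as a description. In iGPA it was at 1.75 and 0.982 in Ctrl and 5.11 and 9.08 in Dox (1.75 ± 0.60), with 1.51 without replicate 2 of Ctrl (adjusted p = 0.133) and 1.39 without replicate 2 of Dox (adjusted p = 0.158), and at 0.91 with a pseudocount of 5. In iG+A it was listed at 0 in both Ctrl libraries and at 3.19 and 1.22 in Dox, a call with adjusted p = 0.04 that became 0.0668 with a replicate block. It was also lost without replicate 1 or 2 of Ctrl or replicate 1 of Dox, at adjusted p of 0.117, 0.11 and 0.243, and with a pseudocount of 5 (adjusted p = 0.19). Epha2, an epithelial receptor of Efna1, was lower in iP+A (687 and 1084 in Ctrl, 277 and 313 in Dox, -1.55 ± 0.32) and higher in iGPA (343 and 255 in Ctrl, 759.9 and 949 in Dox, 1.52 ± 0.32). Its iP+A value was -1.22 without replicate 2 of Ctrl (adjusted p = 0.0348) and -1.46 without replicate 1 of Dox (adjusted p = 0.0233), and its iGPA value was 1.31 without replicate 2 of Ctrl (adjusted p = 0.016) and 1.36 without replicate 2 of Dox (adjusted p = 0.013). Epha1, Epha3, Epha4, Epha5, Epha6, Epha7, Ephb3, Ephb4 and Ephb6 were called in no line.

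Dox effects were then compared between lines that differ by 1 factor, as the difference of 2 log2 fold changes, each against its own Ctrl. The lines were made separately with different transgene constructs, so an added factor cannot be told apart from the line or the level of a shared factor. Over the Dox libraries of carrying lines, Atoh1 ranged from 12816 to 21242, Gfi1 from 8119 to 12487 and Pou4f3 from 4694 to 19883. Adding Gfi1 to Atoh1 (iG+A against iAtoh1) gave 15 of 71 members a different Dox effect, where 6.87% of all genes were called, and adding Gfi1 to Pou4f3 and Atoh1 (iGPA against iP+A) gave 17, where 7.60% were called. Adding Gfi1 to Pou4f3 (iG+P against iPou4f3) gave 14 (7.63%), and adding Pou4f3 to Atoh1 (iP+A against iAtoh1) gave 2 (2.78%), which became 0 without replicate 1 of iP+A Dox or replicate 2 of iAtoh1 Dox and 1 without replicate 1 of iP+A Ctrl. The Dox effect on Robo2 was larger in iGPA than in iP+A by 2.94 ± 0.40 (limma adjusted p = 5.90e-05), that on Unc5a by 2.93 ± 0.41 (adjusted p = 8.10e-05) and that on Slit1 by 4.08 ± 0.60 (adjusted p = 0.000143). Unc5a and Plxnd1 had a larger effect in iG+A than in iAtoh1 as well, by 2.999 ± 0.41 and 2.44 ± 0.27. Efna1 had a lower effect with Gfi1 in all 3 comparisons, by -2.30, -3.89 and -2.10, and none of these lost its call when a library was left out. Nrp1 differed in 2 of the 3, by -2.23 and -2.52, and in iG+A against iAtoh1 its difference was -1.65 ± 0.61 (adjusted p = 0.0753). The first of these Nrp1 differences was lost without each of 3 libraries, with -1.96, adjusted p = 0.0761, without replicate 1 of iPou4f3 Dox.

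Some rises were smaller where Gfi1 was added. The Dox effect on Unc5d was lower in iG+P than in iPou4f3 by -2.84 ± 0.59 (limma adjusted p = 0.0027), and Unc5d was at 94.1 and 74.8 in iG+P Dox against 544 and 473 in iPou4f3 Dox. For iGPA against iP+A the Unc5d difference was -1.47 ± 0.59 (95% interval -2.72 to -0.23, adjusted p = 0.0924), which was not called. Ephb1 had a lower effect with Gfi1 in iG+A against iAtoh1, by -1.51 ± 0.33, and in iG+P against iPou4f3, by -1.67 ± 0.33. These were close to the threshold and lost without each of 4 libraries in the first, with the highest p at -1.32, adjusted p = 0.0243, without replicate 2 of iG+A Dox, and without 1 in the second, at -1.48, adjusted p = 0.013, without replicate 1 of iPou4f3 Ctrl. Sema6b, which rose in all 4 lines with Atoh1, differed by 0.59 ± 0.31 in iG+A against iAtoh1 (95% interval -0.05 to 1.24) and by 0.76 ± 0.31 in iGPA against iP+A (95% interval 0.12 to 1.40), neither called.

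**Figure D4:**
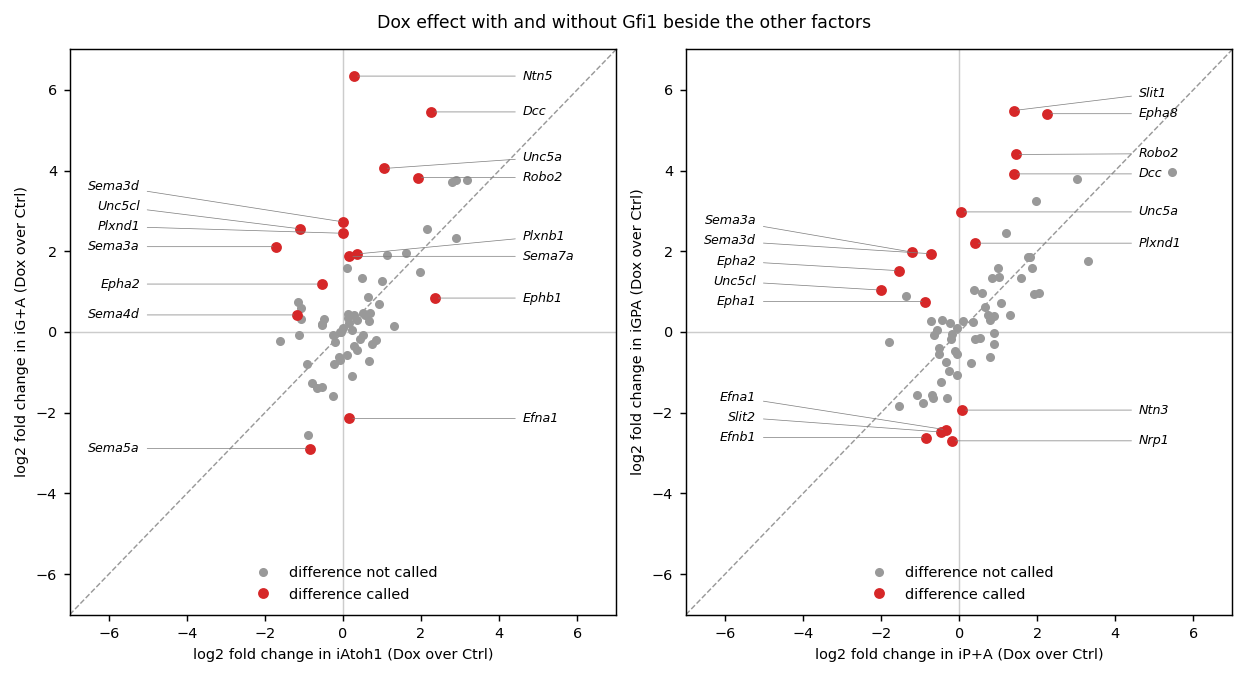
Log2 fold change of Dox over Ctrl in iG+A against iAtoh1 (left) and in iGPA against iP+A (right) for each member, with the dashed line marking equal effects and red points the members whose difference between the lines was called. Members with a group listed at 0 in both libraries are left out. Dcc, Unc5a, Robo2 and Plxnd1 lie above the line in both panels, and Efna1 lies below it in both.

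Other genes of the axon guidance pathway were read from a list of 59, all of them tested. The counts higher and lower were 13 and 6 in iGPA (8.65% and 5.31% of all genes), 13 and 4 in iG+A (7.35% and 4.95%), 10 and 1 in iP+A (4.70% and 2.58%) and 6 and 4 in iG+P (5.16% and 5.36%). In the single-factor lines, 5 genes of the list were higher and 1 lower in iAtoh1 (2.89% and 2.52%), 3 higher and 3 lower in iGfi1 (2.15% and 2.67%), and 1 higher and 0 lower in iPou4f3 (1.47% and 0.606%). The counts lower in iG+A, iG+P, iAtoh1 and iP+A and both counts in iPou4f3 lay near the shares of all genes. Draxin, a secreted repellent that binds Dcc and netrin-1, rose in 6 lines, with 55.1 and 44.2 in Ctrl and 2203 and 2002 in Dox in iGPA (5.38 ± 0.22, limma adjusted p = 5.12e-12). Cntn2, an adhesion molecule of commissural axons, had 35.5 and 23.2 in Ctrl and 5998 and 7313 in Dox in iGPA (7.80 ± 0.42), and Dscaml1, a relative of the netrin receptor Dscam, had 89.1 and 59.4 in Ctrl and 2490.3 and 2811 in Dox (5.17 ± 0.31). Gap43, a growth cone protein, rose in iP+A (3.15 ± 0.37) and fell in the 4 lines with Gfi1, from -2.59 in iGfi1 to -4.14 in iG+A. Srgap3, which acts downstream of Robo receptors, rose in iAtoh1 (1.65 ± 0.28) and fell in iG+A (-1.85 ± 0.28), iG+P (-2.09 ± 0.28) and iGPA (-2.06 ± 0.28), while Srgap1 rose in iG+A and iGPA (2.07 ± 0.20 and 2.07 ± 0.20).

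The cell type markers were read beside these results. Of 12 neuronal markers, 10 rose in iP+A, 8 in iGPA, 4 in iAtoh1 and iG+A, 2 in iPou4f3 and iG+P and none in iGfi1, with 1 falling in iAtoh1 and in iG+A. Their summed level in iG+A, where Dcc and Robo2 rose strongly, was 824.7 and 1060.8 in Ctrl and 2136.1 and 2048.0 in Dox. Of 6 hair cell markers, 4 rose in iGPA, 3 in iG+A, 2 in iG+P and iP+A, 1 in iPou4f3 and none in iAtoh1 and iGfi1, and none fell. Blood markers fell in iAtoh1 (6 of 10), iG+A and iP+A (5 each), iGPA (4) and iG+P (1) and rose in iGfi1 (1), and pluripotency markers in iP+A (6 of 9), iG+A (5), iGPA (4) and iG+P (2). Dissociation stress genes were called lower in iG+A (2 of 9) and in no other line, and endothelial markers fell in iG+P (3 of 10), iAtoh1 (2), iP+A (1) and iGPA (1) and rose in iGPA (2) and iG+A (1). Mesenchymal markers fell in iGPA (8 of 10), iG+A (6), iG+P (5), iGfi1 and iAtoh1 (3 each) and iP+A (2), and none rose. The part of these cells and of dissociation in the guidance results was not tested.

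The 2 genes that only share a name behaved differently from each other. Unc50 was called in no line, with its lowest value -0.27 ± 0.08 in iGfi1. Unc5cl, an epithelial signalling protein, rose in iGfi1 from 9.10 and 15.5 to 159 and 129 (3.48 ± 0.53), in iG+P (3.33 ± 0.53) and in iG+A (2.55 ± 0.53). In iP+A it was lower, at 28.2 and 19.98 in Ctrl and 2.80 and 8.96 in Dox (-2.01 ± 0.53), with -1.77 without replicate 1 of Ctrl (adjusted p = 0.066) and -1.31 without replicate 1 of Dox (adjusted p = 0.168).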

How the data were processed

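The study's RNA-seq libraries came from 14 groups of 2. The authors trimmed reads with cutadapt, pseudo-aligned them with kallisto at default settings to UCSC knownGene transcripts (mm9), summarised them per gene with tximport and normalized with DESeq2 (versions not given in the sources used here). They deposited log2 values per gene, from 0 to 18.5, whose integer read counts and depth were not used here; a count test does not suit these values, so limma 3.58.1 in R 4.3.3 was used. Values were rescaled to normalized counts, genes needed 10 or more in at least 2 libraries, and log2(normalized count + 1) was fitted in 14 groups (14 residual degrees of freedom) with an intensity trend and tested on simulated data. The median standard error was 0.184 for a line and 0.261 for a difference between lines. The 2 clones per group allow few degrees of freedom, and precision is set by their number.

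Members and lists were chosen with earlier results of these data known. Every member may be named. Full values went to the 3 largest rises and falls per line among called members whose Dox libraries both lay on the same side of both Ctrl libraries. They also went to members called the same way in 3 or more lines and to called members of the Slit, Robo and netrin systems. Members called in a difference between lines were given them too. Other genes came from the list of 59 guidance genes and from marker lists. Replicate numbers mark clones per the series' design text, which does not state that Dox and Ctrl libraries of equal number share a clone. Dox and Ctrl libraries of equal number deviated together in each line (correlation across genes 0.103 to 0.246). Alternatives were a pseudocount of 5, no filter, quantile normalization, a replicate block, a fit of only the groups compared, and leaving out each library. Gene positions are from GENCODE M1 (NCBIM37, 70 of 71 members matched), and promoters are from RefSeq (GRCm38.p6, 61 of 71).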

Additional observations from a re-analysis of the deposited data

Results flagged for a closer look

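A test of the difference between lines in the Dox effect singled out 46 results, each given as a difference of log2 fold changes against each line's own Ctrl, with 2 libraries per group. Ntn5 in comparisons with iP+A is left out, because it was listed at 0 in iP+A Dox. Every comparison is limma's, and the lines in a pair do not share Ctrl libraries. A call that is lost without any one library is followed by the value and adjusted p without the library that gives the highest adjusted p or, where that p stays under 0.05 and the fold threshold decides, the smallest difference. Such a call can be lost without other libraries too. The Sema7a difference in iG+A against iAtoh1 was lost without each of 7 of 8 libraries. For Slit2 in iGPA against iP+A this held for 6 of 8.

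In iP+A against iAtoh1, the Dox effect on Unc5d differed by 2.54, and this was lost without each of 4 libraries (1.97, adjusted p = 0.0884, without replicate 1 of iAtoh1 Ctrl).

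In iG+A against iAtoh1, the differences that no single library decided were 6.05 for Ntn5, 3.82 for Sema3a, 3.65 for Unc5cl, 3.19 for Dcc, 2.999 for Unc5a, 2.44 for Plxnd1, -2.30 for Efna1 and -2.05 for Sema5a. The difference was 2.71 for Sema3d (2.19, adjusted p = 0.0649, without replicate 1 of iAtoh1 Ctrl), 1.91 for Robo2 (1.48, adjusted p = 0.0197, without replicate 2 of iAtoh1 Dox), 1.73 for Epha2 (1.27, adjusted p = 0.0803, without replicate 2 of iG+A Dox) and 1.71 for Sema7a (1.26, adjusted p = 0.19, without replicate 2 of iG+A Dox). Smaller ones were 1.59 for Sema4d (1.36, adjusted p = 0.028, without replicate 2 of iAtoh1 Dox), 1.58 for Plxnb1 (1.26, adjusted p = 0.00171, without replicate 1 of iAtoh1 Ctrl) and -1.51 for Ephb1 (-1.32, adjusted p = 0.0243, without replicate 2 of iG+A Dox). Sema3a had opposite signs in the 2 lines, -1.71 in iAtoh1 and 2.11 in iG+A.

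In iG+P against iPou4f3, the differences that no single library decided were -3.89 for Efna1, 3.26 for Unc5cl, -2.84 for Unc5d, -2.27 for Efna5, -1.93 for Sema5a and -1.88 for Unc5b. The difference was 3.44 for Ntn5 (2.14, adjusted p = 0.0978, without replicate 2 of iG+P Ctrl), 2.24 for Slit1 (1.83, adjusted p = 0.0826, without replicate 1 of iPou4f3 Dox), 2.24 for Dcc (1.82, adjusted p = 0.0707, without replicate 1 of iG+P Dox) and -2.23 for Nrp1 (-1.96, adjusted p = 0.0761, without replicate 1 of iPou4f3 Dox). It was 2.01 for Sema7a (1.48, adjusted p = 0.115, without replicate 1 of iPou4f3 Ctrl), 1.72 for Epha1 (1.38, adjusted p = 0.0674, without replicate 1 of iG+P Ctrl), -1.67 for Ephb1 (-1.48, adjusted p = 0.013, without replicate 1 of iPou4f3 Ctrl) and -1.63 for Unc5c (-1.33, adjusted p = 0.0336, without replicate 1 of iPou4f3 Ctrl).

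In iGPA against iP+A, the differences that no single library decided were 4.08 for Slit1, 3.15 for Epha8, 3.06 for Epha2, 2.94 for Robo2, 2.93 for Unc5a, 2.51 for Dcc, -2.52 for Nrp1, -2.10 for Efna1 and -2.005 for Ntn3. The difference was 3.18 for Sema3a (2.06, adjusted p = 0.114, without replicate 2 of iP+A Ctrl), 3.04 for Unc5cl (2.35, adjusted p = 0.0564, without replicate 1 of iP+A Dox), 2.66 for Sema3d (1.99, adjusted p = 0.0763, without replicate 1 of iP+A Dox) and -2.02 for Slit2 (-1.53, adjusted p = 0.155, without replicate 2 of iP+A Ctrl). It was 1.80 for Plxnd1 (1.47, adjusted p = 0.00102, without replicate 2 of iGPA Dox), -1.77 for Efnb1 (-1.35, adjusted p = 0.0704, without replicate 2 of iP+A Ctrl) and 1.62 for Epha1 (1.33, adjusted p = 0.0765, without replicate 2 of iP+A Dox). Epha1 was called in no line alone, and its log2 fold change was 0.75 in iGPA and -0.86 in iP+A.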

How the results depend on the processing

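Of 113 Dox effects called in the 7 lines, 80 kept their call without any one library, as did 24 of 48 differences between lines. No called value changed sign under any alternative. With a replicate block, the members lower in iAtoh1 were 2 rather than 1, and of 161 called values only Epha10 in iG+A was lost (adjusted p = 0.0668). Without the filter 3 calls were lost (Robo4 in iG+A and iGPA and the Sema7a difference of iG+A and iAtoh1). With a pseudocount of 5, 5 were lost (Robo4 in both lines, Unc5cl in iP+A, and Epha10 in iG+A and, at 0.91, in iGPA). With quantile normalization 8 were lost (and 2 members were lower in iAtoh1), and in a fit of only the groups compared 20 were lost. These were Slit1, Dcc, Ntn4 and Sema3b in iAtoh1, Ntn4, Sema3d and Sema4f in iPou4f3, Epha10 and Robo4 in iG+A, Sema3b and Unc5cl in iP+A, Robo4 in iGPA and 8 differences between lines (Ntn5 and Sema7a in 2 each, and Unc5d, Epha2, Sema3d and Sema3a). This setting left 0 members lower in iAtoh1, 2 lower in iP+A, 4 higher in iPou4f3 and 0 with another Dox effect in iP+A than in iAtoh1; it has fewer residual degrees of freedom. Leaving out 1 library at a time, members lower in iAtoh1 ranged from 0 to 2, lower in iGfi1 from 2 to 7, lower in iP+A from 2 to 4, higher in iPou4f3 from 4 to 5, and those with another Dox effect in iP+A than in iAtoh1 from 0 to 3. The lowest counts came without replicate 1 of Dox in iAtoh1, iGfi1 and iP+A, and without replicate 1 of Ctrl or replicate 2 of Dox in iPou4f3. With 2 clones per group the standard error of a Dox effect was 0.74 for Ntn1 and 0.93 for Robo3, which limits what the absence of a call shows for these genes.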
